A study of Mus musculus with 2 samples.

Results

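The genes described here encode metalloproteinases of the matrix and cell surface and their inhibitors: the matrix metalloproteinases (Mmp), the Adam proteins, the Adamts proteases, the protease-free Adamts-like proteins (Adamtsl), the tissue inhibitors of metalloproteinases (Timp) and Reck. They were taken by gene symbol, as every probe set with 1 symbol in the platform annotation that starts with one of these family names and a digit, or equals Reck. This gave 71 genes with 125 probe sets, of 18193 genes with 34945 probe sets on the array. The families contributed 18 Mmp, 28 Adam, 15 Adamts, 5 Adamtsl and 4 Timp genes, and Reck. Another 6 probe sets with a family name in the deposited table but no platform symbol, and 5 shared with a further symbol, were set aside.

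Liver mesothelial cells, the sheet of flat epithelial-like cells on the surface of the organ, were compared at 2 stages with 1 Affymetrix array each. The embryonic cells came from C57BL/6 livers at embryonic day 12.5 (E12.5) and had been sorted for PCLP1, a sialomucin encoded by Podxl. The adult cells came from C57BL/6 livers at 8 weeks and had been sorted for Mesothelin, a surface glycoprotein encoded by Msln. Neither group carried a transgene or a treatment per the labels, and all livers were digested with collagenase. Since each group had 1 array, the differences below have no replicate check and no test was made. The effects of stage, of the sorting antibody and of the array cannot be told apart. How many livers went into each sort is not given in the sources used here.

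Mmp proteins are zinc proteases that are made as inactive zymogens and, once a propeptide is removed, cut collagens, gelatin, laminin and other matrix proteins. Membrane-type Mmps act at the cell surface, and Mmp14 together with Timp2 binds the zymogen of Mmp2 there and activates it. Adam proteins shed the outer parts of membrane proteins such as Notch, growth factor precursors and cadherins, although several of them have lost the catalytic site and serve in adhesion. Adamts proteases are secreted and cut versican and related proteoglycans, procollagens or microfibril proteins, while Timps and the membrane-anchored Reck hold these enzymes back.

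Sequences are shown for 5 members, to set promoters of detected members beside those of undetected ones. The first 3 were detected on the arrays: Mmp11, with the higher signal at E12.5, Mmp14, with similar signals on both arrays, and Timp2, with the higher signal in adult. The last 2, Mmp3 and Mmp13, an activating stromelysin and an interstitial collagenase, were called present on neither array. Each sequence runs 5′ to 3′ on the gene's strand from 250 bases before to 50 bases after the start of the gene in RefSeq (GRCm38.p6). They lie at chr10:75932453-75932752 on the minus strand (Mmp11), chr14:54431348-54431647 on the plus strand (Mmp14), chr11:118355362-118355661 on the minus strand (Timp2), chr9:7445572-7445871 on the plus strand (Mmp3) and chr9:7272264-7272563 on the plus strand (Mmp13). Capitals mark the GC box GGGCGG, the AP-1 motif TGANTCA and the TATA motif TATAAA, each searched on both strands. These motifs are known from Mmp promoters and were chosen with the detection calls known.
Mmp11: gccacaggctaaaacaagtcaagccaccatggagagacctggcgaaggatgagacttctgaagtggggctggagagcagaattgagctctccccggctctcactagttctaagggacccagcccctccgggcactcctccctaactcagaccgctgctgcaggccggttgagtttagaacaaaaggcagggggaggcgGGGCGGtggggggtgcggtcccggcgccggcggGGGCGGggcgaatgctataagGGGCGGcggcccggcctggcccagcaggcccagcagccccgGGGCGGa
Mmp14: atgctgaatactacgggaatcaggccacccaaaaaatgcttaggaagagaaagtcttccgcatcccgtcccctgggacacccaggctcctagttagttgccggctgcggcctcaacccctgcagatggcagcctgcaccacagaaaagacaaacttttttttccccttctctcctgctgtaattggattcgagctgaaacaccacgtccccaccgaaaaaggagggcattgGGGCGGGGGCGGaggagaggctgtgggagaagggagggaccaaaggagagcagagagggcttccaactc
Timp2: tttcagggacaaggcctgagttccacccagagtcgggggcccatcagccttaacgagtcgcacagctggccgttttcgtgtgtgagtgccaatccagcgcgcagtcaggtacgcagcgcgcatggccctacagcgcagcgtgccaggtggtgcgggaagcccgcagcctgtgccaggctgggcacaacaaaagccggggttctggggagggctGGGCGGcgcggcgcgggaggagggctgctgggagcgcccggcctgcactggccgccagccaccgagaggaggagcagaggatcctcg
Mmp3: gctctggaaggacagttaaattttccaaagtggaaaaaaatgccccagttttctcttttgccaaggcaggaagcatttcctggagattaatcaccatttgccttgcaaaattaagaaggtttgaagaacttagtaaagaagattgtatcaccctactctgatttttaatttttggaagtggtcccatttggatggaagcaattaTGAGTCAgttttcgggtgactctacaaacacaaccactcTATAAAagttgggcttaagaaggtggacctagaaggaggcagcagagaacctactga
Mmp13: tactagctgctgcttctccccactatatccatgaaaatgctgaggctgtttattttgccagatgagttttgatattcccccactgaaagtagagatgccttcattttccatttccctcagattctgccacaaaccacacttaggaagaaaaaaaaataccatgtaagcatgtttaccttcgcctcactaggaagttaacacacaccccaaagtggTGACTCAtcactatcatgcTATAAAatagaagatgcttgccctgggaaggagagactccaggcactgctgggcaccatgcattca

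The Mmp11 stretch held 4 GC boxes, that of Mmp14 2 abutting ones and that of Timp2 1, and none of the 3 held the AP-1 or the TATA motif as spelled here. The stretches of Mmp3 and Mmp13 each held 1 AP-1 motif followed by 1 TATA motif and no GC box. Their GC content was 40.0% and 43.7%, against 67.0% for Mmp11, 56.0% for Mmp14 and 68.7% for Timp2.

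Promoters were at hand for 42 of the 71 members (47 sequences, since a few genes have several starts). None was at hand for the detected Mmp2, Mmp16, Mmp17 and Mmp19 or the undetected Mmp9. Among 10 promoters of 8 undetected Mmp genes, 8 held the TATA motif, 7 the AP-1 motif and 0 a GC box. Among 6 promoters of 5 detected Mmp genes, 1 held the TATA motif, 1 the AP-1 motif and 4 a GC box. The detected gene with the AP-1 and TATA motifs was Mmp1a, called present in adult alone with a signal of 11.0. Over all families, 20 of 27 promoters of detected members held a GC box (74.1%), against 2 of 20 of undetected members (10.0%) and 35.7% of all 32851 promoters in the table. The AP-1 motif stood in 7.41% of the detected and 45.0% of the undetected members' promoters and in 7.81% of all. The TATA motif stood in 7.41%, 55.0% and 13.6%. Of the 20 undetected promoters, Mmp genes held 7 of the 9 with the AP-1 motif and 8 of the 11 with the TATA motif, while among 7 promoters of undetected Adam genes each motif stood in 2 (28.6%). The 8 undetected Mmp genes with promoters, and Mmp1a, lie in runs of neighbouring Mmp genes on chromosome 9. Copies in such a cluster share ancestry, and matches of letters are not sites of binding.

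Part of the family was not detected. Of the 71 members, 40 were called present on at least 1 array (56.3%), where 70.4% of all 18193 genes were. Of these 40, 29 were present on both arrays, while 6 had a present call at E12.5 only and 5 only in adult. Signals are given in arbitrary units, with those of the adult array divided by the ratio of the array medians. Signals of different genes come from different probes, so a higher signal of 1 gene than of another does not mean more of its RNA, and ranges and sums over genes are descriptions only. Where a gene was present on 1 array alone, its fold is a lower bound, written as "at least", taken against its own dim signal or, where that is lower still, the dimmest probe set with a present call on the array (4.57 at E12.5, 5.84 in adult).

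The members split in both directions. A signal higher at E12.5 by 2-fold or more was found for 13 of the 40 (32.5%), against 29.1% of all 12801 genes detected on at least 1 array, and one higher in adult by as much for 11 (27.5%), against 16.9%. The other 16 passed 2-fold in neither direction. Of these, 12 were present on both arrays and lay within 2-fold, while the rest have only a bound or no fold. A 4-fold limit left 9 (22.5%, against 10.2% of all genes) and 8 (20.0%, against 8.37%). Among the 29 members present on both arrays, 8 passed 2-fold towards E12.5 (27.6%, against 27.1%) and 9 towards adult (31.0%, against 13.2%). The median log2 difference, E12.5 minus adult, was 0.03 over the 40 members and 0.35 over all detected genes. With the detected genes centred on 0, the split of the 40 members was 10 at E12.5 to 14 in adult (41.7% at E12.5). That of genes present on both arrays was 1658 to 1980 (45.6%). With no scaling the splits were 16 to 9 (64.0%) and 4770 to 814 (85.4%). These splits are not over like sets, since only 29 of the 40 members were present on both arrays. Differences in bulk RNA do not tell fewer cells of a type from less RNA per cell.

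**Figure D1:**
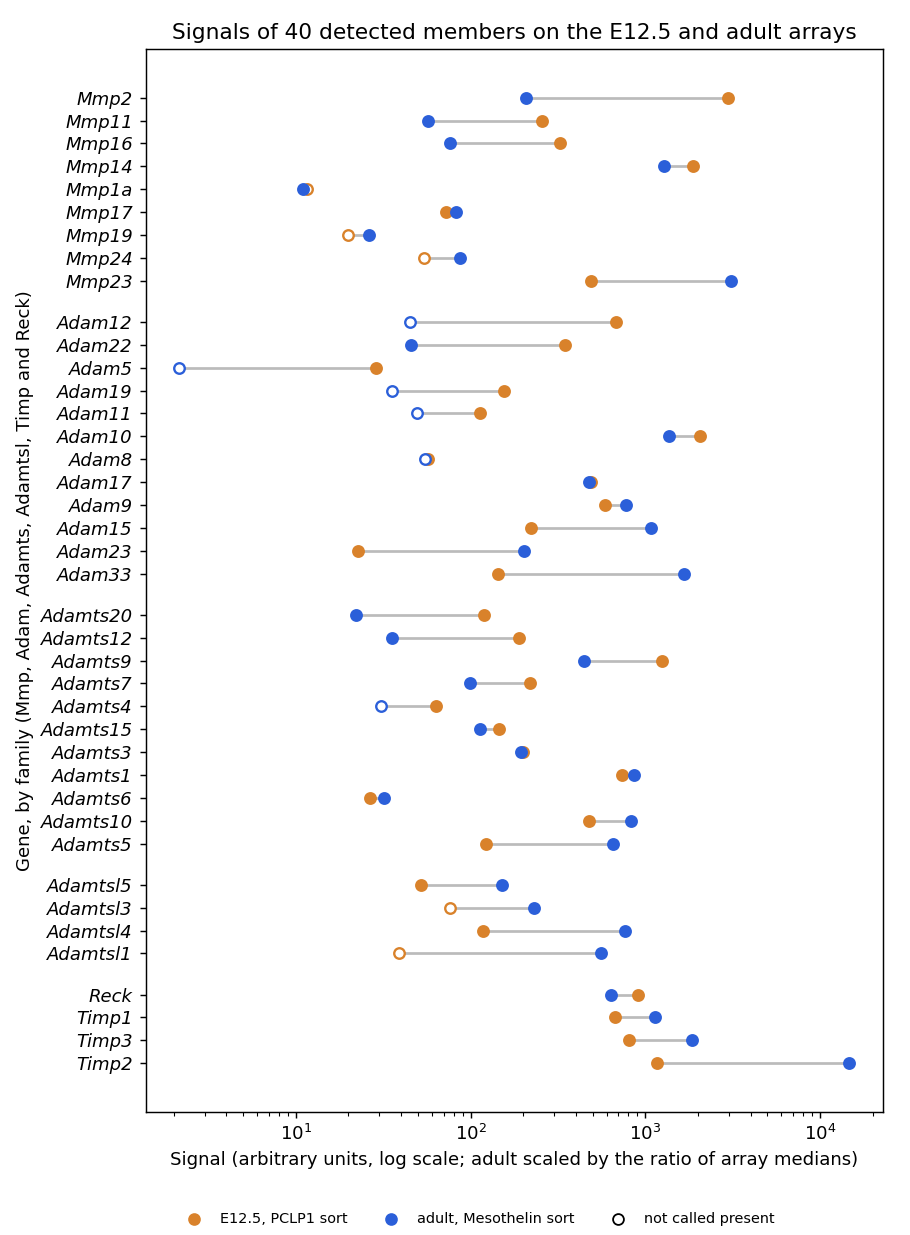
Signal of each of the 40 detected members (log axis, arbitrary units) on the E12.5 array (orange) and the adult array (blue), 1 probe set per gene and 1 array per group, with open circles where the gene was not called present. Mmp2 and Adam12 show the widest gaps with E12.5 to the right among signals above 100, and Timp2, Adamtsl1 and Adam33 the widest with adult to the right.

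Both arrays carried mesothelial markers, and markers of other cell types were also called present. All 11 genes of a mesothelial list were present on both arrays, with summed signals of 33279 at E12.5 and 80239 in adult, and 6 of the 11 were at least 2-fold higher in adult. Of the antigens used for sorting, Podxl, the gene of PCLP1, had 6069 (E12.5) and 1807 (adult) and was the one gene of the list past 2-fold towards E12.5. Msln had 48.5 and 11835. Erythroid markers were present in 7 of 9 at E12.5 and 0 of 9 in adult (2472 and 137), hepatoblast or hepatocyte markers in 8 and 6 of 9 (29062 and 2693), and megakaryocyte markers in 4 and 3 of 4 (13540 and 921). Neutrophil markers were present in 5 and 3 of 9 (2113 and 297) and stellate or fibroblast markers in 7 and 6 of 8 (11755 and 5419). Macrophage markers were present in 4 and 10 of 10 (777 and 22960) and endothelial markers in 7 and 7 of 8 (1561 and 13850). Of the endothelial genes 3, Clec4g, Kdr and Stab2, were at least 2-fold higher in adult and carried most of that sum, whereas Tek (257 and 137), Cdh5 (128 and 109) and Emcn (63.6 and 61.3) were not higher in adult. Dendritic cell markers were present in 1 and 2 of 6, and T, B or NK cell markers in 0 of 5 on either array. The 3′ to 5′ ratio of the Gapdh control probe sets, higher with more 5′ loss, was 2.07 for embryonic and 6.81 for adult cells. That of beta-actin was 1.93 and 3.47. The part of other cell types and of RNA quality in the differences below was not tested.

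Among the Mmp genes, the gelatinase Mmp2, which cuts type IV collagen and denatured collagen, had the largest difference. It gave signals of 2973 (E12.5) and 206 (adult), 14.4-fold more at E12.5. A second probe set for Mmp2 gave 3084 and 137, 22.5-fold. Both probe sets thus had strong embryonic signals and adult signals that were low but still called present.

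Mmp16, a membrane-type Mmp that can also activate the Mmp2 zymogen, had 323 (E12.5) and 75.9 (adult), 4.26-fold more at E12.5. Its other detected probe sets gave 4.59-fold and at least 6.74-fold in the same direction. Mmp11, or stromelysin-3, a stromal enzyme that is activated inside the cell by furin, had 257 and 56.8, 4.52-fold higher at E12.5.

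Mmp14, the membrane-type collagenase that activates the Mmp2 zymogen, was present on both arrays with a strong signal. Its brightest probe set gave 1865 at E12.5 and 1275 in adult, 1.46-fold apart. The other probe sets gave 175 and 79.8 (2.19-fold higher at E12.5) and 38.7 and 42.5 (1.10-fold higher in adult). The probe sets of Mmp14 therefore disagreed in direction, and the brightest lay within 2-fold. The GPI-anchored Mmp17 had 72.6 and 82.0, also within 2-fold.

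Of 9 detected Mmp genes 3 passed 2-fold towards E12.5 (33.3%, against 29.1% of all detected genes) and 1 towards adult (11.1%, against 16.9%). The counts were also 3 and 1 among the 6 present on both arrays, where the shares of all genes were 27.1% and 13.2%. With so few genes, these counts describe the 2 arrays only. Mmp23 was the one Mmp gene at least 2-fold higher in adult. It encodes an unusual membrane-tethered Mmp that carries a cysteine array and an immunoglobulin-like domain in place of the hemopexin domain. It gave signals of 489 (E12.5) and 3093 (adult), 6.33-fold more in adult. Its second probe set gave 348 and 2298, 6.61-fold, so that the probe sets nearly coincided.

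The remaining detected Mmp genes had low signals and were present in adult alone. Mmp24, a membrane-type Mmp best known from neurons, had 53.9 and 86.7 (at least 1.61-fold), and Mmp19 had 19.9 and 26.1 (at least 1.31-fold). Mmp1a, a mouse counterpart of interstitial collagenase, had 11.6 with an absent call and 11.0 with a present call, which gives no fold. Over the 9 detected Mmp genes the median log2 difference was 0.07, the value of Mmp1a itself, and over the 6 present on both arrays it was 1.32.

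The other 9 Mmp genes were called present on neither array: the collagenases Mmp1b, Mmp8 and Mmp13, the stromelysins Mmp3 and Mmp10, the gelatinase Mmp9, the matrilysin Mmp7, the macrophage elastase Mmp12 and the enamel protease Mmp20. Their brightest probe sets lay between 0.809 and 22.1 at E12.5 and between 0.456 and 72.9 in adult. Mmp3, at 22.1 and 72.9, had a marginal call in adult. Mmp9 and Mmp8, which neutrophils store, had 20.3 and 15.6 and 18.0 and 7.35 at most, and Mmp12 had 2.76 and 5.12. Of the neutrophil markers 5 of 9 were present at E12.5, and all 10 macrophage markers were present in adult. The part of such cells in these signals was not tested.

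Timp2 was the inhibitor with the largest difference, and it went the other way from Mmp2. It encodes a secreted inhibitor that blocks active Mmps and, bound to Mmp14, also serves as the anchor for the Mmp2 zymogen. Its brightest probe set had 1164 (E12.5) and 14688 (adult), 12.6-fold more in adult. The other detected probe sets gave 1674 and 9839 (5.88-fold), 1272 and 8075 (6.35-fold), 377 and 2572 (at least 6.82-fold) and 91.4 and 216 (2.36-fold). All 5 were higher in adult, and the size ran from 2.36 to 12.6-fold with the probe set chosen. The sixth probe set was absent on both arrays.

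Timp3, which stays bound to the matrix and also inhibits Adam17 and aggrecan-cutting Adamts proteases, had 803 (E12.5) and 1841 (adult), 2.29-fold more in adult. Its other 3 probe sets were also higher in adult, by 2.07, 2.03 and 1.39-fold. Without scaling of the arrays, or with its probe sets averaged, the Timp3 difference was under 2-fold. Timp1, a soluble inhibitor that acts poorly on membrane-type Mmps, had 669 and 1144, within 2-fold at 1.71-fold higher in adult, and passed 2-fold after quantile normalization and with the detected genes centred. Reck, the membrane-anchored inhibitor of Mmp2, Mmp9 and Mmp14, had 902 and 634, 1.42-fold higher at E12.5. Timp4 was not detected, with at most 27.8 and 27.4. The median log2 difference of the 4 detected inhibitors was -0.99.

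**Figure D2:**
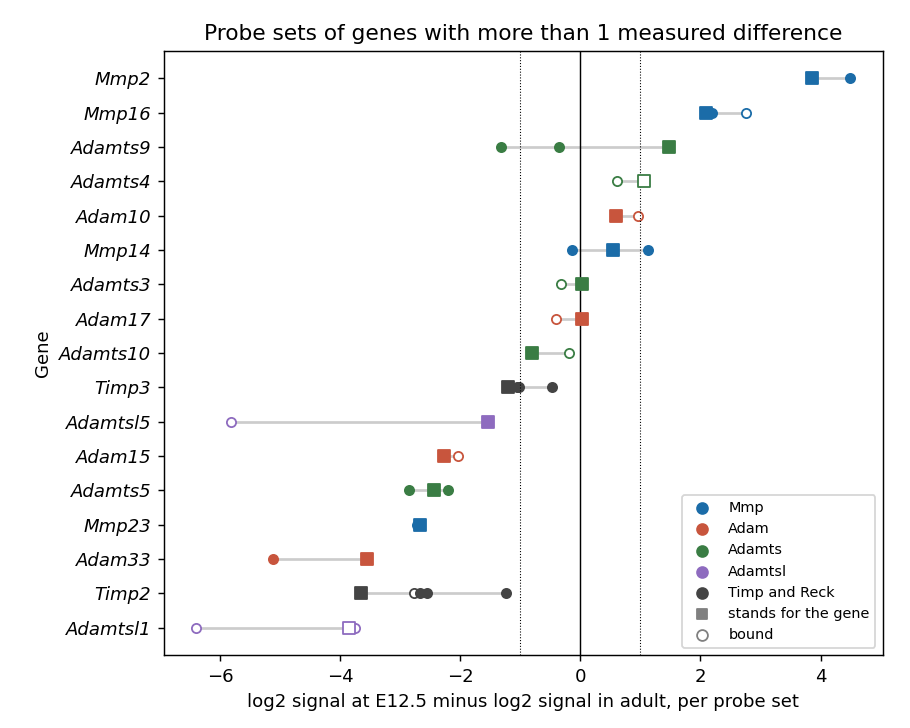
log2 signal at E12.5 minus adult for each probe set of the 17 members with more than 1 measured difference or bound. Squares mark the probe set that stands for the gene, open symbols mark bounds and dotted lines mark 2-fold. The probe sets of Mmp2 and Mmp16 all lie to the right of the 2-fold line and those of Timp2, Adam33, Mmp23, Adamts5 and Adam15 to the left, while those of Adamts9 lie on both sides.

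Of 28 Adam genes 12 were detected. By 2-fold or more, 5 were higher at E12.5 (41.7%, against 29.1% of all detected genes) and 3 in adult (25.0%, against 16.9%). The other 4 passed 2-fold in neither direction. Among the 7 present on both arrays, 1 passed it towards E12.5 (14.3%, against 27.1%) and 3 towards adult (42.9%, against 13.2%). The 5 higher at E12.5 were Adam12, Adam22, Adam5, Adam19 and Adam11. Only Adam22 among them was also present in adult. The median log2 difference over the 12 was 0.32, and it was -0.40 over the 7 present on both arrays.

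Adam12, or meltrin alpha, a protease of mesenchyme and forming muscle, had 683 at E12.5 and 45.1 with an absent call in adult, at least 15.1-fold higher at E12.5. Its other probe set was absent on both arrays. Adam19, or meltrin beta, needed for heart valve and septum formation in the mouse, had 154 and 35.3, at least 4.37-fold higher at E12.5. Both meltrins were thus present at E12.5 alone.

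Adam22, a receptor for LGI proteins that has no active catalytic site, had 345 (E12.5) and 45.4 (adult), 7.60-fold more at E12.5. Adam11, a close relative that also lacks the catalytic site, had 113 and 49.3, at least 2.30-fold more at E12.5, which was under 2-fold with the detected genes centred or with the pseudocount. The third of these non-catalytic relatives, Adam23, went the other way, with 22.7 (E12.5) and 203 (adult), 8.94-fold more in adult. Adam23 had 2 further probe sets, with 3.66 and 39.2 (absent on both arrays) and 14.8 and 33.1 (present at E12.5 alone, though brighter in adult). Adam5, known from testis, had a low 28.7 and 2.15, at least 4.92-fold, and came to no difference once signals under 32 were raised to 32.

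Adam33 had the largest difference of the Adam genes towards adult. It encodes a protease of smooth muscle and mesenchymal cells, known in humans as an asthma susceptibility gene. Its signals were 143 (E12.5) and 1676 (adult), 11.7-fold more in adult, and those of its second probe set 43.8 and 1522, 34.7-fold. Adam15, a membrane protease whose disintegrin domain binds integrins, had 222 and 1074, 4.85-fold higher in adult. That probe set may match several genes, and another gave 33.5 and 137, at least 4.09-fold in the same direction.

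The ubiquitous sheddases lay within 2-fold. Adam10, which cuts Notch receptors and N-cadherin, had 2043 at E12.5 and 1361 in adult. Adam17, which releases tumour necrosis factor and EGF-family ligands, had 487 and 477, and its probe sets disagreed in direction by small amounts. Adam9 had 586 and 776. Adam8, known from leukocytes, was present at E12.5 alone, but its signals of 56.7 and 54.7 hardly differed.

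The 16 undetected Adam genes were Adam1a, Adam1b, Adam2, Adam3, Adam4, Adam6a, Adam6b, Adam7, Adam18, Adam21, Adam24, Adam25, Adam26a, Adam28, Adam32 and Adam34. Many of these are known from testis and epididymis. Adam4 had 96.8 and 85.9 with absent calls, and the others stayed at or below 18.9 at E12.5 and 27.3 in adult.

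Of 11 detected Adamts genes 5 passed 2-fold towards E12.5 (45.5%, against 29.1% of all detected genes) and 1 towards adult (9.09%, against 16.9%). All 4 detected Adamtsl genes passed it towards adult (100%, against 16.9%). The medians were 0.36 and -2.16 on the log2 scale. Among the 10 Adamts genes present on both arrays, 4 passed 2-fold towards E12.5 (40.0%, against 27.1%) and 1 towards adult (10.0%, against 13.2%). Only 2 Adamtsl genes were present on both arrays, and these passed it towards adult (100%, against 13.2%). Adamtsl1 and Adamtsl3 were present in adult alone. With the detected genes centred, 3 Adamts genes passed 2-fold towards E12.5 and 2 towards adult, and their median came to -0.014, while the 4 Adamtsl genes still passed it towards adult. With so few genes, the counts describe these arrays only.

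Adamts20, a versican-cutting protease whose loss gives a white belt in mice, had 120 (E12.5) and 22.2 (adult), 5.40-fold more at E12.5. Adamts12 had 189 and 35.5, 5.32-fold, and its relative Adamts7 219 and 99.8, 2.20-fold. Both of these can cut cartilage oligomeric matrix protein. Adamts7 no longer passed 2-fold after quantile normalization and with the detected genes centred. Adamts4, an aggrecanase, was present at E12.5 alone with 63.4 and 30.5, at least 2.08-fold, and its second probe set gave at least 1.53-fold. It fell under 2-fold with the genes centred, with probe sets averaged, with the floor and with the pseudocount.

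Adamts9, a relative of Adamts20, had no single direction. Its brightest probe set gave 1241 (E12.5) and 446 (adult), 2.78-fold more at E12.5. Another gave 38.0 and 94.5, 2.48-fold higher in adult, and the third 293 and 374, within 2-fold. The log2 difference of 1.48 came to -0.065 when the 3 probe sets were averaged, so that the count of Adamts genes higher at E12.5 includes 1 whose direction depends on the probe set.

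Adamts5, an aggrecanase that also clears versican in developing tissue, was the Adamts gene higher in adult. It had 122 (E12.5) and 657 (adult), 5.39-fold more in adult. Its other detected probe sets gave 34.5 and 250 (7.23-fold) and 83.5 and 383 (4.59-fold), all in the same direction. Adamts1, which also cuts versican, had 740 and 861, and its difference of 1.16-fold stayed within 2-fold.

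The other Adamts genes within 2-fold were Adamts10 (476 and 827), Adamts3 (198 and 194), Adamts15 (146 and 113) and Adamts6 (26.73 and 31.95). Adamts10 and Adamts6 act on fibrillin microfibrils, and Adamts3 is a procollagen and VEGF-C processing enzyme. Adamts10 passed 2-fold in adult after quantile normalization and with the detected genes centred. Adamts8, Adamts16, Adamts18 and Adamts19 were not detected, the last with a marginal call at E12.5 (38.8).

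Adamts-like proteins have the ancillary domains of Adamts proteases without the protease, and several bind fibrillin. Adamtsl1 was absent at E12.5 (39.0) and had 561 in adult, at least 14.4-fold higher in adult. Its other probe sets gave at least 13.5-fold (32.9 and 445) and at least 83.9-fold (1.03 and 383). All 3 probe sets of Adamtsl1 were thus absent at E12.5 and present in adult.

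Adamtsl4, whose human gene is mutated in displaced lens disease, had 117 (E12.5) and 768 (adult), 6.56-fold more in adult. Adamtsl3 had 76.0 with an absent call and 230.0, at least 3.02-fold. Adamtsl5 had 52.2 and 152, 2.92-fold, and a second probe set with 11.3 and 638, absent at E12.5, gave at least 56.7-fold. Unscaled, the difference of Adamtsl5 was just under 2-fold. Adamtsl2 was not detected, with 157 and 54.9 and absent calls.

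**Figure D3:**
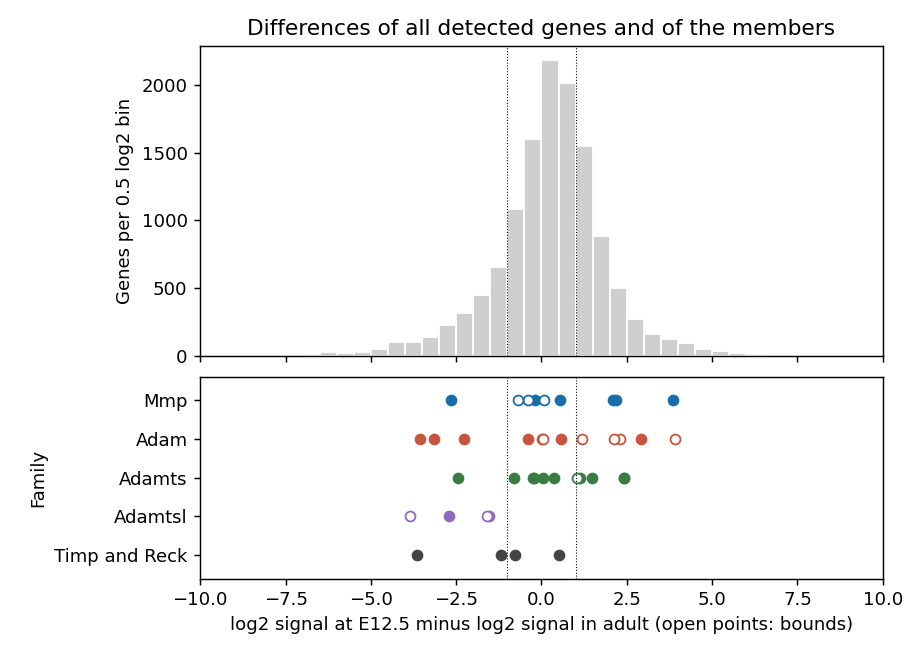
Above, the number of genes per 0.5 log2 of difference (E12.5 minus adult) for the 12801 genes detected on at least 1 array, and below, the 40 detected members by family, with open points for bounds and dotted lines at 2-fold. The 4 Adamtsl genes all lie left of the 2-fold line (3 of the 4 without scaling), whereas Mmp, Adam and Adamts genes lie on both sides.

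Activators, partners and related proteases of the family, a list of 44 genes, were counted beside it. Of 35 detected genes 10 passed 2-fold towards E12.5 (28.6%, against 29.1% of all detected genes) and 14 towards adult (40.0%, against 16.9%). The median log2 difference was -0.39. Among the 27 present on both arrays, 5 passed 2-fold towards E12.5 (18.5%, against 27.1%) and 12 towards adult (44.4%, against 13.2%). Their median was -0.61. The papilin gene Papln, whose product shares domains with Adamtsl proteins, was absent at E12.5 (9.95) and had 135 in adult, at least 13.6-fold. Among testican proteoglycans, Spock2 and Spock3 were higher in adult (at least 369-fold and 7.04-fold) and Spock1 at E12.5 (at least 7.76-fold). Of the tetraspanins that carry Adam10 to the surface, Tspan17 was 6.76-fold higher in adult, whereas Tspan14 and Tspan33 were higher at E12.5 (3.26 and 2.57-fold). The syndecans, substrates and partners of several sheddases, also parted: Sdc1 was 6.09-fold higher at E12.5 and Sdc4 5.61-fold in adult. The probe sets that stand for Tspan14, Tspan33 and Sdc1 may match several genes.

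Further genes of this list at least 4-fold higher at E12.5 were plasminogen (Plg, 937 and 82.7, 11.3-fold), Pappa2 (at least 8.82-fold), the Mmp2-binding thrombospondin Thbs1 (at least 6.59-fold) and the broad protease inhibitor A2m (at least 4.65-fold). Plg and A2m are made by liver parenchyma, for whose markers the summed signals were 29062 (E12.5) and 2693 (adult). The part of such cells in the Plg and A2m signals was not tested. The astacin protease Tll1 was 4.64-fold higher in adult. Furin, which removes the propeptide of membrane-type Mmps and Adams, had 295 and 267, within 2-fold.

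Known substrates, a list of 22 genes, were counted in the same way. Of 16 detected genes 4 passed 2-fold towards E12.5 (25.0%, against 29.1%) and 3 towards adult (18.8%, against 16.9%). Their median log2 difference was 0.16. Among the 13 present on both arrays, 3 passed it towards E12.5 (23.1%, against 27.1%) and 1 towards adult (7.69%, against 13.2%). Detected substrate genes at least 4-fold higher at E12.5 were N-cadherin (Cdh2, 313 and 2.30 with an absent call, at least 53.6-fold), Fbn2 (42.9-fold) and Col1a1 (8.995-fold). In adult they were the shed chemokine Cxcl16 (65.8 with an absent call and 752, at least 11.4-fold) and the EGF-family ligand Tgfa (27.0 with an absent call and 265, at least 9.82-fold). Versican (Vcan), the common substrate of Adamts1, 4, 5, 9 and 20, had 617 and 221, 2.80-fold higher at E12.5.

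**Figure D4:**
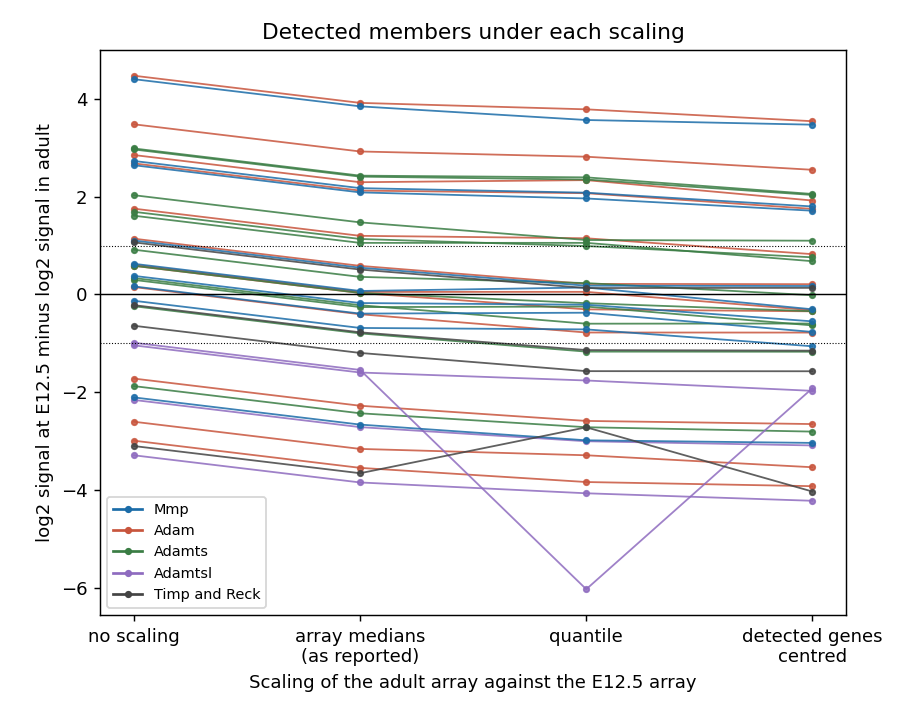
log2 signal at E12.5 minus adult of each detected member under 4 scalings of the arrays, with dotted lines at 2-fold. Lines run nearly parallel except those of Timp2 and Adamtsl5, for which another probe set became the brightest after quantile normalization.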

How the data were processed

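RNA of 1 E12.5 and 1 adult sort, amplified from a small input through a second cycle of cRNA synthesis per the labels' protocols, was hybridised to Affymetrix arrays. The authors deposited a raw signal, an intensity on a linear scale, and a call of detection, per array, for 45101 probe sets. Per the submitters' processing notes, Affymetrix Expression Console was used, and the summarisation algorithm is not given in the sources used here. Per the file headers, each array has a call of other kind beside the signal, with P, M or A for present, marginal or absent. The ratio that the authors deposited equals the adult signal over 0.680 times the E12.5 signal, the ratio of the array medians (44.0 and 29.9), with a floor of 0.01 for 78 probe sets. That scaling was used, with no pseudocount. The series' value table held the same intensity values, rounded, as deposited.

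Each gene was given by 1 probe set, the one of highest mean log2 signal among those with a present call on either array. Of 45037 probe sets other than controls, 51.9% were present at E12.5 and 52.2% in adult. Gene names are those of the platform annotation, updated with the RefSeq table (GRCm38.p6). Without replicates no test was run, and precision is limited by the single arrays. As a yardstick, the pooled SD of log2 differences among probe sets of 1 gene was 0.62 over 4279 genes, which is no error between arrays. Promoter sequences are RefSeq's. Every detected member was named, and listed genes at least 4-fold apart were. The members and lists were chosen with earlier results of these data known. Protein sequences and a planned count of zinc-binding motifs were not analysed here. Alternatives were quantile normalization, no scaling, centring of detected genes, averaged probe sets, leaving out probe sets that may match several genes, a floor of 32, a pseudocount of 16, no detection filter, genes present on both arrays only and the value table. The counting script was tested on simulated data. Python 3.11.15, NumPy 2.4.6, pandas 2.3.3 and Matplotlib 3.10.9 were used.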

Additional observations from a re-analysis of the deposited data

How the results depend on the processing

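The counts of 13 members higher at E12.5 and 11 in adult came to 8 and 9 with genes present on both arrays only, and to 19 and 22 over all 71 members with no detection filter, where absent signals are counted. Family medians near 0 changed sign with the scaling, which shifts every gene: the median of detected genes moved from 0.37 (genes present on both arrays) to 0.12 with quantile normalization, 0.93 without scaling and 0 by construction with centring. The median of all members, 0.03, became -0.19 after quantile normalization, -0.34 with detected genes centred, -0.11 with probe sets averaged and -0.17 over members present on both arrays. That of Mmp genes became -0.30 with centring, -0.051 with no detection filter and 1.32 over those present on both arrays. That of Adam genes became -0.056 with centring and -0.40 over those present on both arrays. That of Adamts and Adamtsl genes together, -0.22, became 0.34 without scaling and 0.20 with no detection filter. The median of the list of activators and partners, -0.39, became 0.17 without scaling, and that of the substrate list, alternatives for which were added after seeing the data, -0.022 after quantile normalization and -0.21 with centring. Adam10, Mmp14 and Reck passed 2-fold towards E12.5 without scaling, and Mmp24 towards adult with centring. The median of Timp genes and Reck stayed below 0 under each alternative. Of single members called at 2-fold, only Adamts9 changed sign, to -0.065 with probe sets averaged. Timp2 came to -2.72 and Adamtsl5 to -6.03 after quantile normalization, because another probe set then stood for the gene. No paired analysis was possible because each group has 1 array, and leaving out a replicate was not possible for the same reason. Signals near the lowest detected ones limit what can be said of the undetected members.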

Other observations

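Members that lie next to each other in the RefSeq gene order form 8 runs, and in 4 of these (Adam6b and Adam6a, Adam1b and Adam1a, Adam24 and Adam25, Mmp20 and Mmp7) no member was called present. In each of the other 4 runs at least 1 member was called present, and in that of Adamts1 and Adamts5 both were. Adamts1 and Adamts5 are direct neighbours, and Adamts1 lay within 2-fold (740 and 861) while Adamts5 was 5.39-fold higher in adult. Of the neighbours Adamts15 and Adamts8, Adamts15 was present on both arrays and Adamts8 on neither. In a run of 5 Adam genes, Adam18, Adam3, Adam5, Adam32 and Adam9, Adam9 was present on both arrays, Adam5 at E12.5 alone at a low signal, and the other 3 on neither. Of the 7 successive Mmp genes Mmp13, Mmp12, Mmp1b, Mmp3, Mmp1a, Mmp10 and Mmp8, 1 was called present, Mmp1a in adult at 11.0.

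Probe sets of the same gene gave a further view of how firm the values are. Among 17 members with more than 1 measured difference or bound, 4 had probe sets of both signs (Adam17, Adamts3, Adamts9 and Mmp14). In 1, Adamts9, they differed by 2-fold either way. The median range within a gene was 0.65 on the log2 scale. It was widest for Adamtsl5 (4.28), Adamts9 (2.79), Adamtsl1 (2.64) and Timp2 (2.42). All 3 values of Adamtsl1 and the larger one of Adamtsl5 were lower bounds, so these ranges are not spreads between measured differences.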
